A study of Homo sapiens with 4 samples.

Results

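The genes described here are 37 members of the type I interferon response. They were chosen by name from what is known of the pathway, with earlier results of these data also known. Symbols were matched to the gene identifiers of the count tables (RIGI was formerly DDX58). All 37 were found, among 58884 genes listed. Their transcripts were counted by RNA sequencing of HCT116 cells, an established line from a human colorectal carcinoma, in 2 libraries titled as wild type and 2 titled as RALY knockdown. The cell line field reads HCT-116 for all 4, but the source name of the second library in each group reads HCT-117. RALY belongs to the hnRNP proteins, which bind RNA in the nucleus. The treatment protocol, given for all 4 libraries, describes infection for 72 h with lentivirus that encodes either a hairpin RNA to silence RALY or one that silences nothing. The source labels call the wild-type cells untreated, so whether the control cells received virus is not settled, and a response to virus cannot be told apart from one to loss of RALY. Nothing in the labels gives a hairpin's sequence or says whether several were used, and no label ties the 2 libraries of a group to separate cultures. The p-values therefore reflect how far these libraries vary among themselves, and that variation may be technical.

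Type I interferons are secreted proteins made by cells that sense foreign or misplaced nucleic acid. They bind the receptor formed by IFNAR1 and IFNAR2, whose kinases JAK1 and TYK2 phosphorylate STAT proteins. STAT2 joins IRF9 in a transcription factor complex that binds a DNA element rich in GAAA repeats, the interferon-stimulated response element, and induces antiviral genes such as those of the IFIT, OAS and MX families. Many of these genes are held at a low basal level in epithelial cells until interferon arrives.

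The response element was looked for in the RefSeq promoter sequences of the members (build GRCh38.p14, 250 bases before to 50 bases after a gene's start), as the letters GAAANNGAAA on either strand, the other strand reading TTTCNNTTTC, with overlapping matches counted. Of 30 members with a promoter entry, 21 (70%) held the letters in at least 1 window, against 1195 of 27305 genes (4.38%). The members were chosen by name as genes of the response, so this contrast describes the choice and is no test. IFIT2, OAS2, OASL, MX2, DHX58, IRF7 and USP18 had no entry. Among the members called lower below, IFIT1 and BST2 held the letters and IFI35 did not. Among those called higher, PARP14 held them and IRF9 did not. Of 20 members with an entry that were tested and not called, 16 held them. These windows are shown because the same element stood before genes that fell, rose and were not called. Capitals mark the matches, and each sequence reads 5′ to 3′ on the strand of its gene, upstream of the start.
IFIT1, chr10:89392497-89392539, plus strand: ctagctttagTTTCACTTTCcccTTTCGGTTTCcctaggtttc
BST2, chr19:17405735-17405770, minus strand: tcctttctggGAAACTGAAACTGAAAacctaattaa
PARP14, chr3:122680800-122680829, plus strand: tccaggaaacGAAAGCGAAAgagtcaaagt
IFIT5, chr10:89414513-89414567, plus strand: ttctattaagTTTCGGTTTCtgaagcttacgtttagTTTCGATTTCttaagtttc
ISG15, chr1:1013374-1013409, plus strand: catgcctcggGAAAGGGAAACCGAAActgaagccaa
OAS3, chr12:112938452-112938473, plus strand: agccgggcggGAAAACGAAAcc
In IFIT1 a pair of matches lay within 43 bases, and in BST2 and ISG15 the matches overlapped. PARP14 and OAS3 each had 1 match in the stretch shown. A further match of IFIT5 crosses the start of the gene, so only its first letters, at the end of the stretch, are shown, in lower case. A match describes letters only, and no binding was measured.

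Library totals ran from 13360007 to 16847520 counts, so that 3 counts, taken as the limit that a count of 0 allows, corresponded to between 0.173 and 0.227 counts per 1000000 (CPM, on TMM-scaled totals, a scaling that corrects for differences in library composition). This limit covers counting error only. RALY itself had 1903 and 2132 counts in the controls, against 634 and 522 after knockdown, a log2 fold change of -1.84 (SE 0.127, edgeR adjusted p = 6.59e-06). Of 10 colorectal epithelial markers, EPCAM, KRT8, KRT18 and KRT19 were abundant, whereas CDH17, CEACAM5 and LGALS4 had at most 9 counts in any library and VIL1 had 11 to 14. Of the 7 tested, CDX2, a transcription factor of the intestine, fell by 0.47 (edgeR adjusted p = 0.0311) and the others were not called. The 9 leukocyte markers summed to between 46 and 53.6 CPM, of which CD68, sharing 85.6% of its exon bases with other genes, took the largest part. PTPRC, which marks leukocytes, and CD3E, which marks T cells, had at most 9 and 2 counts in any library. Of the 6 leukocyte markers tested, with a median log2 fold change of 0.50, 1 was called (16.7%, against 25.6% of all genes tested). That was ITGAM, with 32 and 36 counts in the controls, against 97 and 68 after knockdown (log2 fold change 1.24, edgeR adjusted p = 0.0106). HLA-DRA, of antigen-presenting cells, had 167 to 303 counts. Of 5 plasmacytoid dendritic cell markers and 7 fibroblast markers, 2 each were tested and none was called. The part of these markers in the results below was not tested. None of the 21 interferon ligand genes could be tested: 15 had no count in any library, IFNB1 had a count of 1 in 1 control library, and the most counted ligand, IFNE, had 3 and 9 counts in the controls, against 8 and 15 after knockdown.

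The members spanned a wide range of basal levels. Per kb of canonical transcript, control means ran from 87.6 CPM per kb for LGALS3BP, a secreted glycoprotein, to 0.0898 for SAMD9 among the members tested, with a median of 3.78 over all 37. After LGALS3BP the highest were ISG15, a ubiquitin-like modifier, at 52.5 ± 1.68, the membrane protein gene IFI6 at 25.7 ± 1.56, STAT2 at 24.7 ± 0.575 and OAS3 at 23.5 ± 1.4 CPM per kb (SD, n = 2 each). IFI6, STAT2 and OAS3 lay within about their spread of each other. HERC5, IRF7 and USP18 followed at 17.3 ± 1.71, 14.9 ± 2.13 and 14.8 ± 1.95, and the last of these were also within their spread. In all, 17 members exceeded 5 CPM per kb in the controls. At the other end, 6 members did not pass the filter on low counts: IFI44L and XAF1 had at most 11 and 5 counts in a library, MX2 and SAMD9L at most 5 and 3, and CMPK2 and RSAD2, which encode a mitochondrial nucleotide kinase and the antiviral enzyme viperin, had 1 count in 1 knockdown library each and none in the controls. For these 6 no difference was detectable at this depth.

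**Figure D1:**
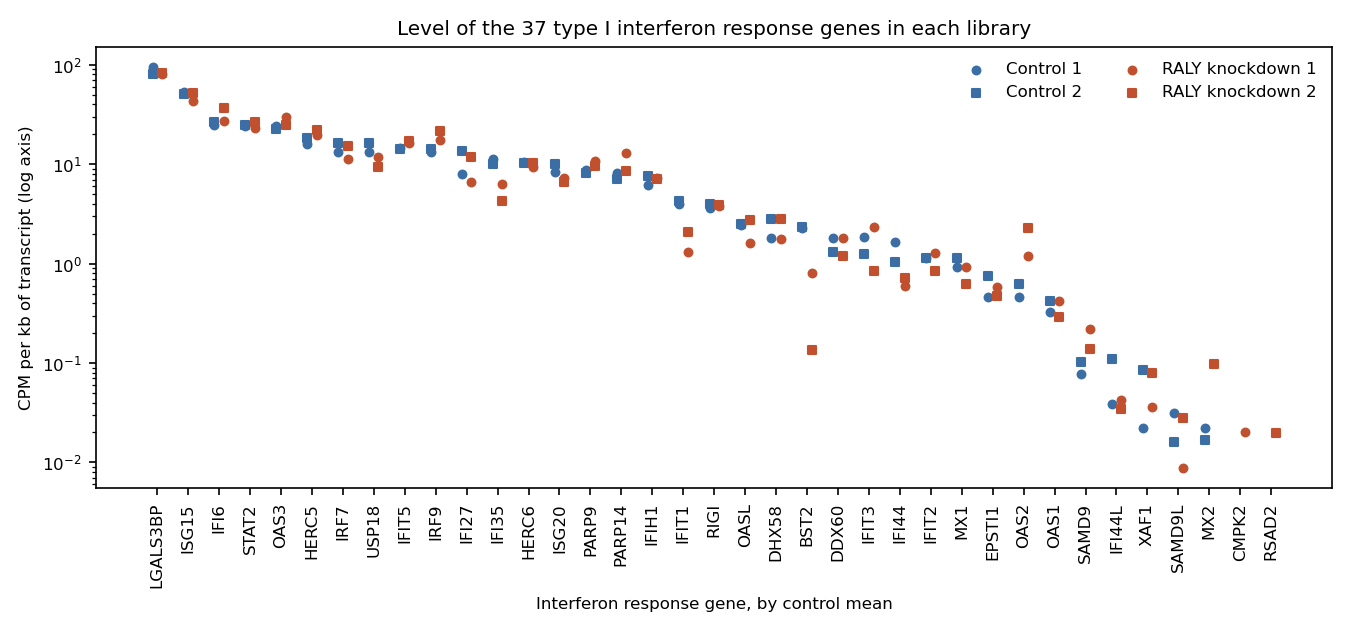
Level of each of the 37 members in CPM per kb of canonical transcript (log axis), ordered by the control mean, with controls in blue, RALY knockdown in red, replicate 1 as circles and replicate 2 as squares; libraries with no count are not drawn. Control means run from 87.6 for LGALS3BP down to members with hardly a count, and the groups of OAS2 and BST2 lie visibly apart.

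Of the 31 members tested, OAS2, IRF9 and PARP14 were higher and IFIT1, BST2 and IFI35 were lower after RALY knockdown, and 25 were not called (edgeR quasi-likelihood test; a call needs a p under 0.05 after Benjamini-Hochberg adjustment over all genes). The 3 higher members made up 9.68% of those tested and the 3 lower another 9.68%, where 12.5% of all 19686 genes tested were higher and 13.1% were lower. In either direction 19.4% of the members were called, against 25.6% of all genes, so the share of called members was no larger than the background. The median log2 fold change of the tested members was -0.09, and that of all genes tested was 0.01. The groups did not overlap in 17 of the 31 (54.8%), 9 towards higher and 8 towards lower levels, against 63.6% of all genes. The 2 knockdown libraries differed over 1.5-fold in CPM in 11 tested members, and the 2 controls in 4. Over genes at large the knockdown libraries also differed more, with a chi-square per degree of freedom of 9.32, against 5.1 in the controls. The share of all genes past 1.5-fold was not counted. The 37 members together summed to 980.5 and 962 CPM in the controls and to 1021 and 1011 CPM in the knockdown libraries. This sum is weighted towards the abundant members: of the 31 tested, 13 had a log2 fold change above 0 and 18 below.

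**Figure D2:**
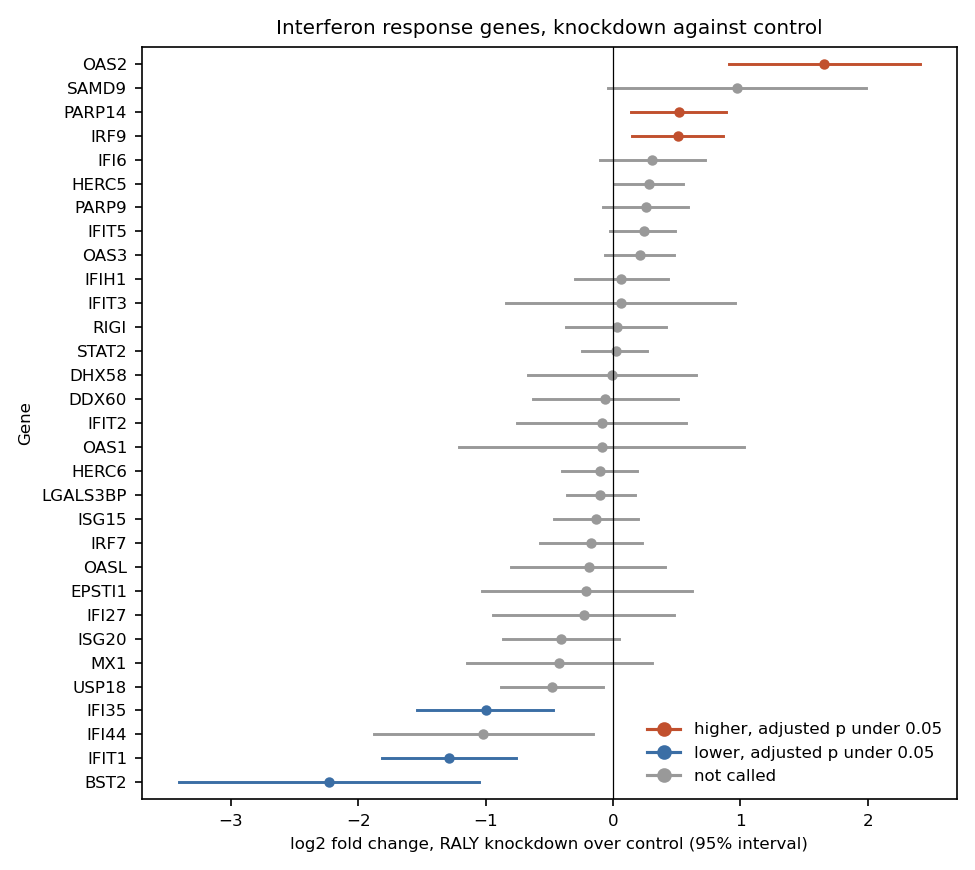
Log2 fold change (RALY knockdown over control) of the 31 tested members with its 95% interval; red marks members called higher, blue those called lower and grey those not called at an edgeR adjusted p under 0.05. Called members lie at both ends, from -2.23 for BST2 to 1.66 for OAS2, and most of the others lie near 0.

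The IFIT proteins bind viral RNA, and their genes lie side by side on chromosome 10. IFIT1, whose protein recognises RNA with an incompletely methylated cap, was the member with the smallest p among those that fell. The gene (ENSG00000185745, chromosome 10, positions 89392546 to 89406487, plus strand, GRCh38) stood at 16.9 and 18.5 CPM in the controls, against 5.67 and 8.93 CPM after knockdown. Both knockdown libraries lay below both controls, and IFIT1 fell by 1.29 on the log2 scale (SE 0.242, edgeR adjusted p = 0.00269). Its neighbour IFIT5, which starts 8.08 kb downstream of its end, stood at 58.3 and 56.9 CPM in the controls, against 66.0 and 69.7 CPM after knockdown, a log2 fold change of 0.24 that was not called (95% interval -0.02 to 0.49). Within each library, IFIT1 had 29.1 and 32.6 counts per 100 counts of IFIT5 in the controls, against 8.58 and 12.8 after knockdown, so the pair shifted against each other whatever the scaling of the libraries. IFIT2 and IFIT3, at lower levels, had log2 fold changes of -0.09 and 0.06, with 95% intervals of -0.75 to 0.57 and -0.84 to 0.96. The 2 knockdown libraries of IFIT3 fell on either side of the controls, with 90 and 30 counts against 58 and 52.

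BST2, or tetherin, holds budding virus particles at the cell surface. The gene (ENSG00000130303, chromosome 19, positions 17402939 to 17405630, minus strand) had 2.27 and 2.31 CPM in the controls, against 0.809 and 0.134 CPM after knockdown. It was the member with the lowest fold change, at -2.23 on the log2 scale (SE 0.543, edgeR adjusted p = 0.0106), and both knockdown libraries lay below the controls. The size rests on few counts: the second knockdown library had 2 counts, for which an exact Poisson interval at 95% runs from 0.242 to 7.22 counts (counting error only). Without that library the log2 fold change was -1.50, and without the other knockdown library it was -4.02. IFI35, which encodes a partner of the interferon-induced protein NMI, stood at 13.5 and 12 CPM in the controls, against 7.53 and 5.10 CPM after knockdown (ENSG00000068079, chromosome 17, positions 43006725 to 43014456, plus strand). It fell by 1.0 on the log2 scale (SE 0.247, edgeR adjusted p = 0.0114), again with no overlap between the groups. IFI44, of unsettled function, showed a similar size at a lower level, with 2.80 and 1.73 CPM in the controls, against 0.996 and 1.21 CPM after knockdown, but was not called (log2 fold change -1.02, edgeR adjusted p = 0.0784).

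**Figure D3:**
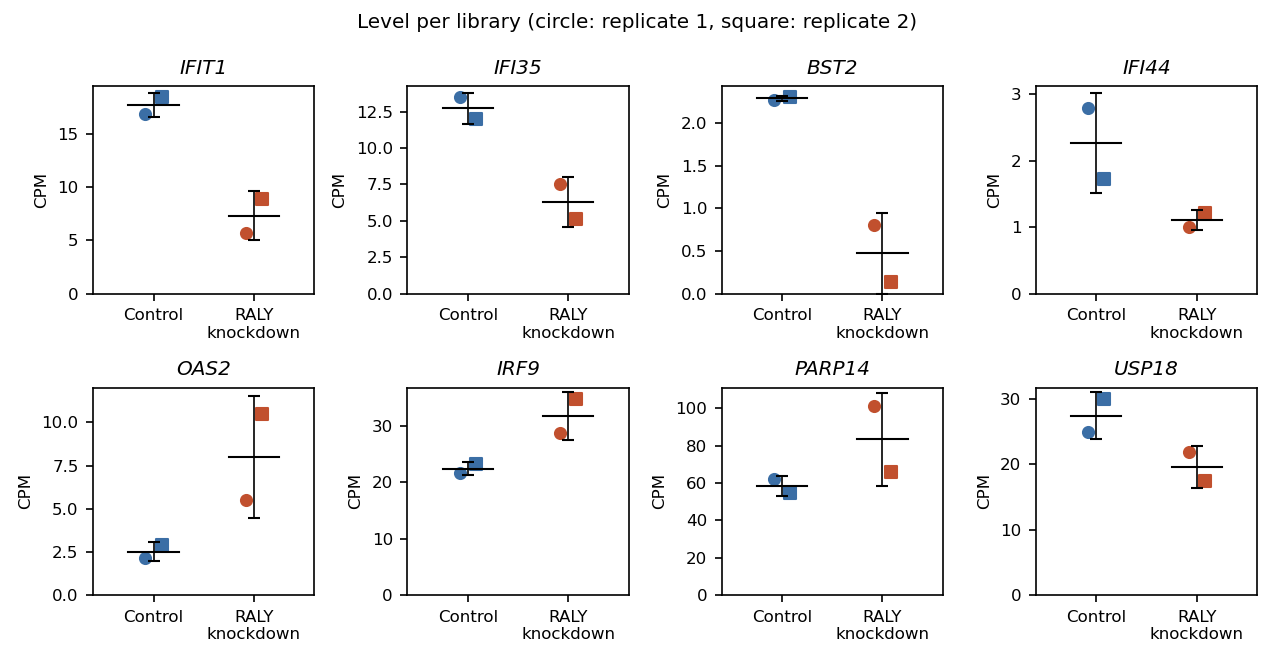
CPM in each library for the 6 called members and for IFI44 and USP18, which were not called; each panel has its own axis from 0, circles are replicate 1, squares replicate 2, and black bars give the mean ± SD of 2 libraries, cut at 0. In the 6 called members the control and knockdown points do not overlap, and the knockdown points of BST2, OAS2, IFIT1 and PARP14 differ over 1.5-fold.

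The OAS enzymes make oligoadenylates, a second messenger of antiviral defence, when they meet base-paired RNA. OAS2 was the member with the largest rise. The gene (ENSG00000111335, chromosome 12, positions 112978395 to 113011723, plus strand) stood at 2.12 and 2.89 CPM in the controls, against 5.48 and 10.5 CPM after knockdown. The knockdown libraries were both above the controls and differed 1.92-fold from each other, and the log2 fold change was 1.66 (SE 0.346, edgeR adjusted p = 0.0046). OAS3, which lies 5.14 kb upstream and was far more abundant, stood at 162 and 149 CPM in the controls, against 196 and 163 CPM after knockdown, with a log2 fold change of 0.21 that was not called (95% interval -0.06 to 0.48). OAS2 gave 1.31 and 1.94 counts per 100 counts of OAS3 in the controls, against 2.79 and 6.48 after knockdown. OAS1, with 7 to 12 counts per library, and OASL, an enzymatically inactive relative, had log2 fold changes of -0.09 and -0.19 (95% intervals -1.21 to 1.03 and -0.80 to 0.41).

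Of the factors that carry the signal to the genes, IRF9 rose and the other members did not pass the test. IRF9, the DNA-binding subunit of the complex with STAT2, stood at 21.6 and 23.2 CPM in the controls, against 28.8 and 34.8 CPM after knockdown (ENSG00000213928, chromosome 14, positions 24161053 to 24166565, plus strand). All knockdown values lay above the controls, and the log2 fold change was 0.51 (SE 0.163, edgeR adjusted p = 0.0386). Its counts are uncertain, since 45.5% of its exon bases are shared with another listed gene on the same strand. STAT2 was nearly level, with 107 and 110.4 CPM in the controls, against 101 and 118 CPM after knockdown (log2 fold change 0.02, 95% interval -0.24 to 0.27). There were 20.2 and 21 counts of IRF9 per 100 counts of STAT2 in the controls, against 28.4 and 29.4 after knockdown. IRF7, the factor that amplifies interferon production, stood at 25.8 and 31.6 CPM in the controls, against 21.8 and 29.3 CPM after knockdown, and its groups overlapped (log2 fold change -0.17, 95% interval -0.57 to 0.23).

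The cytoplasmic RNA sensors were nearly level. RIGI, IFIH1 and DHX58, which encode the helicases RIG-I, MDA5 and LGP2, had log2 fold changes of 0.03, 0.06 and -0.01. Their 95% intervals were -0.37 to 0.42, -0.30 to 0.43 and -0.67 to 0.65, and in each the groups overlapped. DDX60, a helicase linked to the same sensing, was at -0.06 (95% interval -0.63 to 0.51).

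ISG15 is joined to other proteins by a chain of enzymes that includes the conjugating enzyme UBE2L6 and the ligase HERC5, and is removed by USP18, which also dampens the receptor. None of the members of this system was called. ISG15 stood at 34.2 and 32.7 CPM in the controls, against 27.6 and 33.5 CPM after knockdown, with overlapping groups (log2 fold change -0.13, 95% interval -0.46 to 0.20). HERC5 stood at 56.7 and 65.1 CPM in the controls, against 69.6 and 78.3 CPM after knockdown (log2 fold change 0.28, edgeR adjusted p = 0.119), and HERC6, its relative, was at -0.10. USP18 stood at 24.9 and 30 CPM in the controls, against 21.9 and 17.4 CPM after knockdown, with no overlap (log2 fold change -0.48, edgeR adjusted p = 0.0713). UBE2L6, which is not a member, had 561 and 773 counts in the controls, against 329 and 305 after knockdown and fell by 1.09 on the log2 scale (SE 0.144, edgeR adjusted p = 0.000334).

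PARP14, an ADP-ribosyltransferase of the macrodomain type, stood at 62.3 and 54.4 CPM in the controls, against 101 and 65.7 CPM after knockdown (ENSG00000173193, chromosome 3, positions 122680839 to 122730840, plus strand). The log2 fold change was 0.52 (SE 0.172, edgeR adjusted p = 0.0441). It rests on the first knockdown library, since without it the value was 0.16 and was not called (edgeR adjusted p = 0.428). PARP9, on the same chromosome, was at 0.26 and was not called (95% interval -0.08 to 0.59). PARP9 and its binding partner DTX3L are transcribed away from each other and overlap at their starts by 1.56% of the exon bases of PARP9, yet DTX3L, which is not a member, rose from 42.0 ± 0.991 to 76.8 ± 8.45 CPM (SD, n = 2 each; log2 fold change 0.87, edgeR adjusted p = 0.000581). There were 63 and 60.5 counts of PARP9 per 100 counts of DTX3L in the controls, against 39.7 and 41 after knockdown.

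The remaining tested members act against viruses by other means or have no settled role, and none was called. LGALS3BP stood at 209 and 176 CPM in the controls, against 179.5 and 181 CPM after knockdown (log2 fold change -0.10). Its mean count reached 64.7% of 2 reads per base of transcript. With counts corrected for an assumed levelling off at that limit, the log2 fold change was -0.15 and was not called (edgeR adjusted p = 0.421). IFI6 stood at 20.0 and 21.8 CPM in the controls, against 21.9 and 29.9 CPM after knockdown (log2 fold change 0.31, edgeR adjusted p = 0.249). The exonuclease gene ISG20 and the GTPase gene MX1 were at -0.41 and -0.42, IFI27 and EPSTI1 were at -0.23 and -0.21, and SAMD9, with 7 to 24 counts per library, was at 0.97 on the log2 scale. Over the 25 members not called, log2 fold changes ran from -1.02 to 0.97, with 10 above and 15 below 0. The 95% interval lay within 2-fold either way for 20 of them, and reached past 2-fold for 5.

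Other genes of the pathway were counted from lists of known components, which were chosen with earlier results of these data known. Of 14 receptor and signal transducer genes, all tested, 4 rose (28.6%) and none fell, against 12.5% and 13.1% of all genes. In either direction 28.6% were called, near the 25.6% of all genes tested. The receptor chains IFNAR1 and IFNGR1 rose by 0.35 and 0.34 on the log2 scale (SE 0.109 and 0.118, edgeR adjusted p = 0.0349 and 0.0493), and the transcription factor gene IRF1 rose from 34.0 to 62.5 CPM, by 0.88 on the log2 scale (SE 0.125, edgeR adjusted p = 0.000523). IRF2BP2, a corepressor gene, rose by 0.56. IFNAR1 was not called with the DESeq2 test or without a filter (adjusted p = 0.0729 and 0.0606). IFNGR1 was not called under either of these (adjusted p = 0.118 and 0.0801), nor with DESeq2 size factors, plain totals or without knockdown replicate 2 (edgeR adjusted p = 0.0541, 0.077 and 0.195). IFNAR2, JAK1 and TYK2 were at -0.24, 0.08 and 0.12 and were not called. IFNAR2 shares 83.2% of its exon bases with a readthrough gene and others, and IRF1 shares 22.1% with genes on the other strand, so their counts are uncertain.

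Among 14 negative regulators, 4 rose (28.6%) and 3 fell (21.4%), against 12.5% and 13.1% of all genes. In either direction 50% were called, against 25.6% of all genes. Because the list was chosen with earlier results of these data known, this share may not be independent of the values. The feedback inhibitors SOCS1, SOCS3 and SOCS2 rose by 1.23, 1.09 and 0.45 on the log2 scale (SE 0.33, 0.201 and 0.122, edgeR adjusted p = 0.0168, 0.00231 and 0.0188). Without knockdown replicate 2, SOCS1 was at 0.72 and was not called (edgeR adjusted p = 0.112). SOCS3 had 358 and 483 counts in the controls, against 706 and 1096 after knockdown. The phosphatase gene PTPN2 rose by 0.36, but was not called with the DESeq2 test or without a filter (adjusted p = 0.0608 and 0.0503). PIAS1 and PIAS3, inhibitors of STAT proteins, fell by 0.39 and 0.38. TREX1, a nuclease that clears cytosolic DNA, was lower by 1.16 on that scale (log2 fold change -1.16, edgeR adjusted p = 0.00115), but all of its exon bases are shared with ATRIP, so its counts are uncertain. PIAS1 shares 32.3% of its exon bases with genes on the other strand.

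Of 20 nucleic acid sensor and adaptor genes, 15 were tested, of which 1 rose (6.67%) and 3 fell (20%), against 12.5% and 13.1% of all genes. In either direction 26.7% were called, again near the 25.6% of all genes. ZNFX1, an RNA helicase gene, rose from 99.6 to 194 CPM, by 0.96 on the log2 scale (SE 0.114, edgeR adjusted p = 0.000173). TRAF3, IRF5 and NLRX1 fell by 0.55, 0.58 and 0.67 (edgeR adjusted p = 0.0167, 0.0216 and 0.027). Without knockdown replicate 2, TRAF3 was at -0.32 and NLRX1 at -0.36 and neither was called (edgeR adjusted p = 0.0702 and 0.0952), while without knockdown replicate 1 they were at -0.84 and -1.08. The adaptor genes MAVS and STING1 and the factor gene IRF3 were at 0.04, -0.14 and -0.14 and were not called. CGAS, the cytosolic DNA sensor, had 4 to 8 counts per library and was not tested, and AIM2 had no count in any library. None of 10 genes for binding or editing of base-paired RNA was called by edgeR, against 25.6% of all genes tested. DESeq2 called none of them either, and none had an unadjusted edgeR p under 0.05. ADAR, the editing enzyme, was at 0.02 (95% interval -0.29 to 0.33) and EIF2AK2, the kinase PKR, at 0.12 (95% interval -0.20 to 0.43).

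Of 56 further interferon-induced genes, 41 were tested, of which 6 rose (14.6%) and 3 fell (7.32%), against 12.5% and 13.1% of all genes, with a median log2 fold change of -0.02. In either direction 22% were called, below the 25.6% of all genes. PARP12, a relative of PARP14, rose by 1.03 and CD274, which encodes the checkpoint ligand PD-L1, by 1.47 on the log2 scale (SE 0.137 and 0.21, edgeR adjusted p = 0.000332 and 0.00054). CD274 had 101 and 169 counts in the controls, against 349 and 398 after knockdown. LGALS9 and APOBEC3B rose by 1.51 and 0.44, the latter not called with DESeq2 (adjusted p = 0.0543). IFITM1 and IFITM2, which hinder virus entry, fell by 1.18 and 0.66 (edgeR adjusted p = 0.00561 and 0.00662), while IFITM3 was at -0.03. IFITM1 and IFITM2 share 37.5% and 22.7% of their exon bases with each other, and APOBEC3B shares 23.3% with APOBEC3A and an antisense gene, so these counts are uncertain. The chemokine genes CXCL10 and CXCL11 had at most 6 and 1 counts in a library and were not tested.

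**Figure D4:**
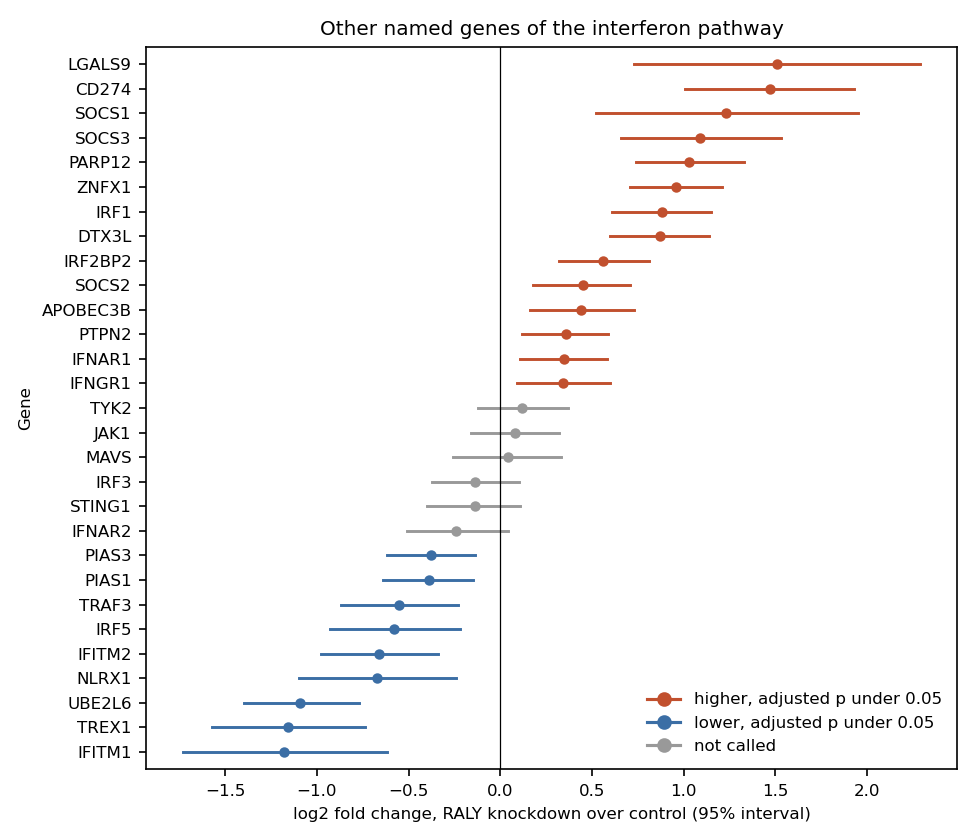
Log2 fold change (RALY knockdown over control) with its 95% interval for 29 named genes of the interferon pathway that are not members; red marks genes called higher, blue those called lower and grey those not called. SOCS1 and SOCS3 lie among the rises, TREX1, UBE2L6 and IFITM1 among the falls, and the kinases JAK1 and TYK2 were not called.

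The calls of the 6 members differed in how they held across processing. IFIT1, BST2, IFI35 and OAS2 were called with each other scaling, filter and test tried, whereas IRF9 was not called with plain library totals or DESeq2 (adjusted p = 0.0704 in edgeR and 0.0725 in DESeq2), nor without the second knockdown library (log2 fold change 0.36, edgeR adjusted p = 0.146). PARP14 was not called with DESeq2 size factors, plain totals, the DESeq2 test or saturation-corrected counts (adjusted p between 0.0557 and 0.0691). When 1 library was left out, its group had a single library, so the spread came from the other group's 2 libraries and the single library was assumed to vary like them. Without control replicate 1 or 2, no member was called, and the share of all genes called in edgeR dropped to 4.79% and 4.82%. In these fits IFIT1 was at -1.38 and -1.23, and OAS2 at 1.43 and 1.90 on the log2 scale. None of the 6 members changed direction in any of the 11 alternatives. Of the 23 called pathway genes named above, 7 were called without control replicate 1 and 7 without control replicate 2, with CD274, DTX3L, IRF1, PARP12, UBE2L6 and ZNFX1 called in every alternative.

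**Figure D5:**
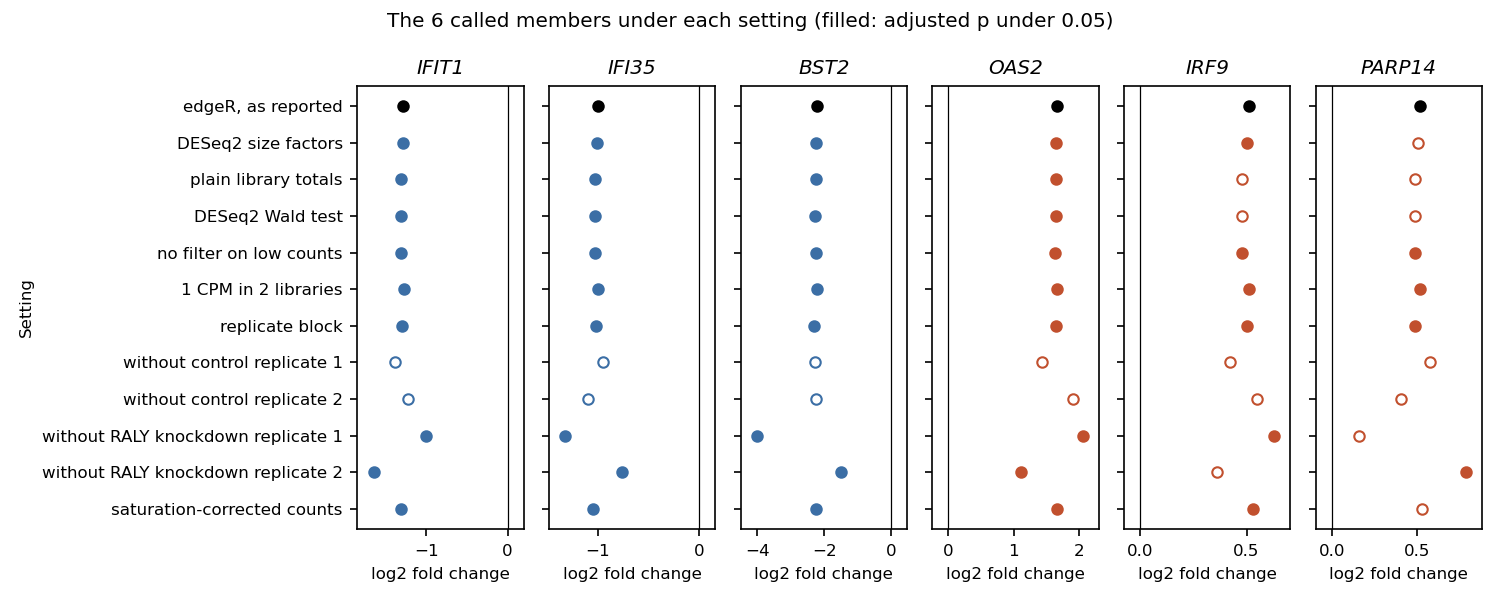
Log2 fold change of the 6 called members (RALY knockdown over control, each panel with its own axis) as reported and under 11 alternatives; filled points have an adjusted p under 0.05 and open points do not. Points stay on 1 side of 0 in every panel, all 6 are open without either control library, and PARP14 moves to 0.16 without knockdown replicate 1.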

How the data were processed

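The deposited values are whole-number read counts per gene, 1 table per library, with the columns that featureCounts writes, per the file headers. The submitters' processing notes name HISAT2 2.0.4, SAMtools, Subread and featureCounts and the build GRCh38. Strand setting and duplicate handling: not given in the sources used here. Symbols and canonical transcript lengths came from GENCODE release 44, in which 58472 of 58884 genes were found.

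Groups and replicate numbers were taken from sample titles. Counts were fitted with edgeR 4.0.16 under R 4.3.3 (filterByExpr, TMM, robust quasi-likelihood F test, Benjamini-Hochberg adjustment over 19686 genes, threshold 0.05), and the code was tested on simulated data. Intervals are the fold change ± its SE times the 97.5% quantile of the t distribution of the fit. CPM uses TMM-scaled totals. Alternatives were DESeq2 size factors, plain totals, DESeq2 1.42.0, no filter, a minimum of 1 CPM in 2 libraries, a block for the replicate number, omission of each library in turn, and counts corrected for an assumed levelling off at 2 reads per base. Promoter sequences are RefSeq's. Members and lists were chosen with earlier results of these data known. Named were members called in any setting, past 2-fold or among the 8 highest per kb, up to 5 called genes per pathway list and direction, and 9 of 10 fixed pathway genes; UBE2L6, DTX3L, IFITM3, ADAR and EIF2AK2 are set beside members or relatives, and other genes outside the rule were chosen after their values were seen. The remaining fixed gene is not reported here.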

Additional observations from a re-analysis of the deposited data

How the results depend on the processing

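The number of members called higher, 3 as reported, was 1 with plain library totals and 1 with the DESeq2 Wald test. The number called lower, 3 as reported, was 5 with the replicate number as a block, where IFI44 and USP18 were added (edgeR adjusted p = 0.0227 and 0.0121). Leaving out 1 library each gave a median log2 fold change of -0.13 to 0.02 over the tested members. The numbers of members called moved as well, as did the share of all genes called. The numbers are shared by titles, and by source names only in that both second libraries read HCT-117. Deviations of control 1 and knockdown 1 from their group means had a correlation of 0.219 over genes. With 2 libraries in a group, the second pair only mirrors the first and adds nothing. The block raised calls over all genes from 5048 to 7054. Among the lists, receptors and transducers gave 2 higher with the DESeq2 Wald test and 2 without a filter, and 1 lower without a filter and 1 with the replicate block. Other interferon-induced genes gave 6 lower with the block. Without 1 library each, receptors and transducers gave 1 to 5 higher and 0 to 1 lower, sensors and adaptors 1 higher throughout and 0 to 4 lower, negative regulators 0 to 4 higher and 0 to 3 lower, and other interferon-induced genes 3 to 8 higher and 1 to 5 lower. HERC5 and IFI6 were called higher only without knockdown replicate 1, where the share of all genes called also rose. In that fit they were at 0.35 and 0.51 on the log2 scale, and USP18 was at -0.67. USP18 was called lower there and also without a filter. Members with few counts, among them SAMD9 and OAS1, are limited by depth.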
